A study of Mus musculus with 4 samples.

Results

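RNA levels of 10 genes that encode cohesin, condensin and the DNA-binding factor CTCF were measured in mouse 2-cell embryos that had been cultured with or without dimethyl sulfoxide (DMSO). The genes were chosen by name, without a rule on their values, but with earlier results of these data known. They were found by their Ensembl identifiers among the 30049 genes of the deposited table. All 10 were present. Those of cohesin were Smc1a, Smc3, Rad21, Stag1 and Stag2 of the mitotic ring, and Rec8 of the meiotic ring. Nipbl loads cohesin onto DNA, Smc2 and Smc4 form the core of condensin, and Ctcf encodes CTCF.

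Cohesin is a ring that holds sister chromatids together from replication to anaphase and that extrudes loops of interphase chromatin. CTCF binds DNA and halts the extruding ring, which sets the borders of loops and domains. Condensin is built on a related pair of SMC (structural maintenance of chromosomes) ATPases and compacts chromosomes for mitosis. In the mouse, the egg carries these transcripts and proteins into the zygote, chromatin folding is weak just after fertilization, and the embryo's own genome is switched on mainly at the 2-cell stage.

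The embryos were wild type, from crosses between BDF1 mice (BDF1 being the first generation of C57BL/6 and DBA/2). Control zygotes spent 24 h in the embryo culture medium KSOM, and DMSO-treated zygotes in the same medium with 2% DMSO. Per the labels, culture began 18 h after hCG, the hormone injected to trigger ovulation, and 50 embryos at the 2-cell stage were taken for each group and lysed as a pool. There were 2 control libraries and 2 DMSO libraries, numbered 1 and 2 in each group, and nothing states that they came from separate cultures, so the p-values measure only the spread between these libraries. The authors gave expression as TPM, in which the reads of a gene are divided by the length of its transcripts and set to a fixed total per library. Values of a pair of libraries are given below in the order library 1, library 2. TPM keeps no depth, so neither a counting error nor a detection floor was available. The listed genes summed to 768174 and 780527 TPM in control embryos against 772487 and 799166 TPM after DMSO. A lower TPM in such a pool can mean less of a transcript in every embryo or fewer embryos with it, and these cannot be told apart. It can also mean more of other transcripts, and mitochondrially encoded genes held 10.8% and 12.4% of the sum in the control libraries but 15.3% and 21.7% in the DMSO libraries.

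Smc2, Stag2 and Smc3 fell in DMSO-treated embryos, and none of the members tested rose. They were called by limma, a linear model that shares variance between genes, fitted on log2(TPM + 1) to the 12038 genes whose mean reached 1 TPM. The Benjamini-Hochberg adjusted p-value had to be under 0.05, and fold changes are on the log2(TPM + 1) scale, which understates those of low genes. Of the 10 genes 9 could be tested, Rec8 being below the filter. The 3 called were thus 3 of 9, where 14.1% of all genes tested were called lower and 6.42% higher. Of all 2470 calls 1697 were lower and 773 higher, and with quantile normalization 1121 were lower and 1076 higher. In 6 of the 9 genes both DMSO libraries lay below both control libraries, a pattern held by 38.7% of all genes tested, and in 0 both lay above, where 31.1% of all genes did. The median log2 fold change of the 9 was -0.55, against -0.09 over all genes tested. Among the 7470 genes whose mean reached 5 TPM, 22.5% were called lower and the median was -0.19. Of the members, 8 reached that mean, with 3 called lower and a median of -0.59. With 9 genes these shares are descriptions and were not tested as a list.

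**Figure D1:**
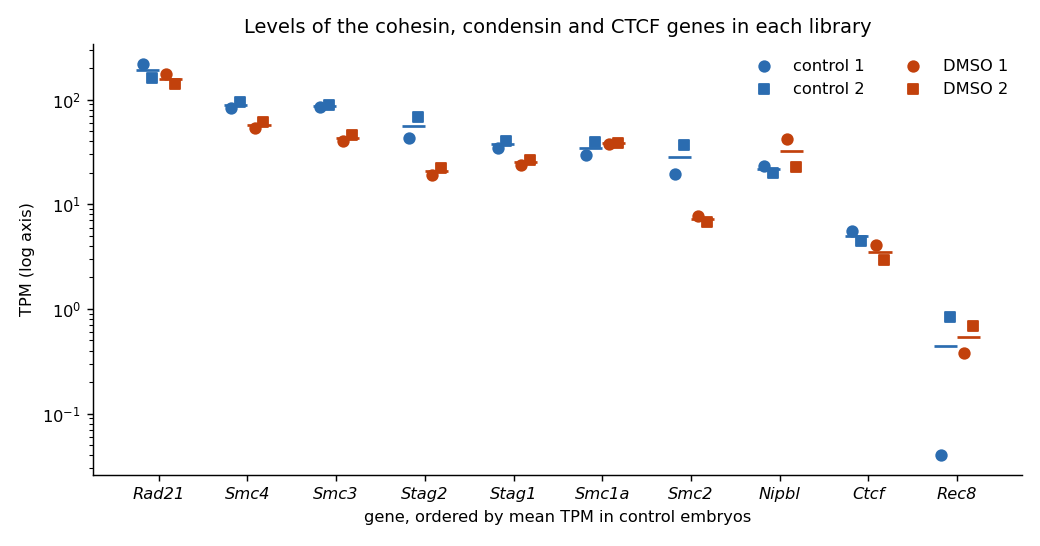
TPM (log axis) of each of the 10 genes in control library 1 (blue circle), control library 2 (blue square), DMSO library 1 (orange circle) and DMSO library 2 (orange square), with group means as lines. Smc3, Stag2 and Smc2 have both DMSO points well below both control points, Smc1a and Rad21 have overlapping points, and Rec8 stays under 1 TPM in every library.

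Smc3 encodes one of the paired ATPases of the cohesin ring and is the subunit that is acetylated when cohesion is established. It lies on chromosome 19 of GRCm38 from 53600398 to 53645833. Smc3 was at 84.7 and 88.2 TPM in control libraries 1 and 2 and at 39.9 and 45.7 TPM in DMSO libraries 1 and 2. The control values were close to each other, and the DMSO values were near 0.496 of the control mean. Its log2 fold change was -0.999 with a standard error of 0.25 (adjusted p = 0.0400 in limma). Smc1a, on chromosome X from 152016428 to 152062694, encodes the ATPase that pairs with Smc3. It was at 29.5 and 39.3 TPM in control embryos against 38.0 and 38.4 TPM after DMSO. Both DMSO values lay between the control values, and the log2 fold change was 0.16 with a 95% confidence interval from -0.51 to 0.83 (limma adjusted p = 0.686). It was -0.0417 without control library 1 and 0.362 without control library 2, so its direction depended on the library.

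Rad21, on chromosome 15 from 51962240 to 51991747, encodes the kleisin that closes the mitotic ring and is cut at anaphase. It was the most abundant of the 10 transcripts per length, at 221 and 163 TPM in control embryos against 175 and 141 TPM after DMSO. The groups overlapped, and the log2 fold change was -0.27 with a 95% confidence interval from -0.94 to 0.40 (limma adjusted p = 0.489). After quantile normalization it was 0.01, so its direction depended on the scaling, and it was -0.0498 without control library 1 and -0.491 without control library 2. Rec8, on chromosome 14 from 55618037 to 55625395, encodes the kleisin that takes Rad21's place in meiosis. It was at 0.0401 and 0.837 TPM in control embryos against 0.379 and 0.695 TPM after DMSO. These values overlapped, and Rec8 made up at most 0.512% of the TPM of the kleisins Rad21, Rec8 and Rad21l in any library.

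Stag1 and Stag2 encode alternative subunits that bind Rad21 and help place the ring on chromatin. Stag2, on chromosome X from 42149317 to 42277185, was at 42.9 and 68.1 TPM in control embryos against 18.9 and 22.3 TPM after DMSO. The control libraries differed more than the DMSO libraries did, but the groups did not overlap. Its log2 fold change was -1.36 with a standard error of 0.32 (adjusted p = 0.0348 in limma). Stag1, on chromosome 9 from 100597798 to 100959375, was at 34.6 and 40.1 TPM in control embryos against 23.8 and 26.7 TPM after DMSO. The groups did not overlap here either, but the log2 fold change of -0.55 did not pass the test (95% confidence interval -1.19 to 0.10, limma adjusted p = 0.176).

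Nipbl, on chromosome 15 from 8290617 to 8444463, encodes the loader that also drives loop extrusion by cohesin. It was at 23.0 and 20.0 TPM in control embryos against 41.6 and 22.6 TPM after DMSO. DMSO library 1 stood above the other 3 libraries, while DMSO library 2 was within the control range. The log2 fold change was 0.50 with a standard error of 0.36 (adjusted p = 0.326 in limma). It was 0.07 without DMSO library 1 and 0.92 without DMSO library 2. Ctcf, on chromosome 8 from 105636568 to 105682922, was at 5.60 and 4.44 TPM in control embryos against 4.06 and 2.91 TPM after DMSO. Both DMSO values were below both control values by a small margin, and the log2 fold change was -0.43 with a 95% confidence interval from -1.24 to 0.38 (limma adjusted p = 0.366).

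Smc2 and Smc4 encode the ATPase pair shared by condensin I and condensin II. Smc2, on chromosome 4 from 52439243 to 52488260, was at 19.5 and 36.7 TPM in control embryos against 7.73 and 6.82 TPM after DMSO. Its control libraries were far apart, and both DMSO libraries were well below the lower of them. The log2 fold change was -1.75 with a standard error of 0.37 (adjusted p = 0.0289 in limma), which placed Smc2 at the 4.98th percentile of all genes tested. Smc4, on chromosome 3 from 69004738 to 69034623, was at 82.6 and 95.8 TPM in control embryos against 53.5 and 61.4 TPM after DMSO. The groups did not overlap, and the log2 fold change of -0.63 (standard error 0.26) had an unadjusted p-value of 0.0476 and a limma adjusted p = 0.121.

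In limma fits on 3 libraries the lone library of a group is assumed to vary like the other group. Such fits cannot decide whether the 3 calls hold, so only fold changes are given here. The log2 fold changes stayed below 0 in these fits, between -2.19 and -1.31 for Smc2, between -1.68 and -1.03 for Stag2 and between -1.09 and -0.90 for Smc3. With every gene above 0 TPM tested, the adjusted p-values were 0.109, 0.114 and 0.103, and 0 of 22257 genes were called by limma, although 5368 had an unadjusted p-value under 0.05. After median-ratio scaling and after quantile normalization Smc2 was called, and Stag2 (limma adjusted p = 0.0513 and 0.0599) and Smc3 (0.0509 and 0.0900) were not. The log2 fold changes were then -1.31 and -1.12 for Stag2 and -0.95 and -0.73 for Smc3. With TPM rescaled without mitochondrial genes, Smc2 (log2 fold change -1.66, limma adjusted p = 0.0335) and Stag2 (log2 fold change -1.26, limma adjusted p = 0.0440) were called. Smc3 was not (log2 fold change -0.90, limma adjusted p = 0.0549), and without the variance trend Smc3 was not called either (limma adjusted p = 0.0586).

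Since cohesin and condensin are built from paired subunits, ratios between partners were also taken within each library, where no scaling between libraries enters. The Smc3 to Smc1a ratio of TPM values was 2.87 and 2.24 in control embryos against 1.05 and 1.19 after DMSO. Transcripts for these partner ATPases were thus at nearly equal levels in both DMSO libraries, but not in the control libraries. The Stag2 to Stag1 ratio was 1.24 and 1.70 in control embryos against 0.794 and 0.835 after DMSO. Stag2 was therefore the higher of the pair in both control libraries and the lower in both DMSO libraries. The Smc2 to Smc4 ratio was 0.236 and 0.384 in control embryos against 0.145 and 0.111 after DMSO. None of these 3 ratios overlapped between groups, and each gave p = 0.33 in an exact two-sided permutation test, the smallest value that 2 libraries against 2 allow. Such separation was common among single genes, 38.7% of those tested being lower without overlap and 31.1% higher. No such share was computed for ratios. Of the 5 ratios computed, the other two set the kleisin against each ATPase of the ring. The Rad21 to Smc1a ratio, 7.49 and 4.13 in control embryos against 4.61 and 3.66 after DMSO, overlapped between groups (exact permutation p = 0.67). The Rad21 to Smc3 ratio was higher in both DMSO libraries, at 2.61 and 1.84 in control embryos against 4.39 and 3.07 after DMSO (exact permutation p = 0.33). All 5 were chosen after the values had been seen and are descriptions.

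**Figure D2:**
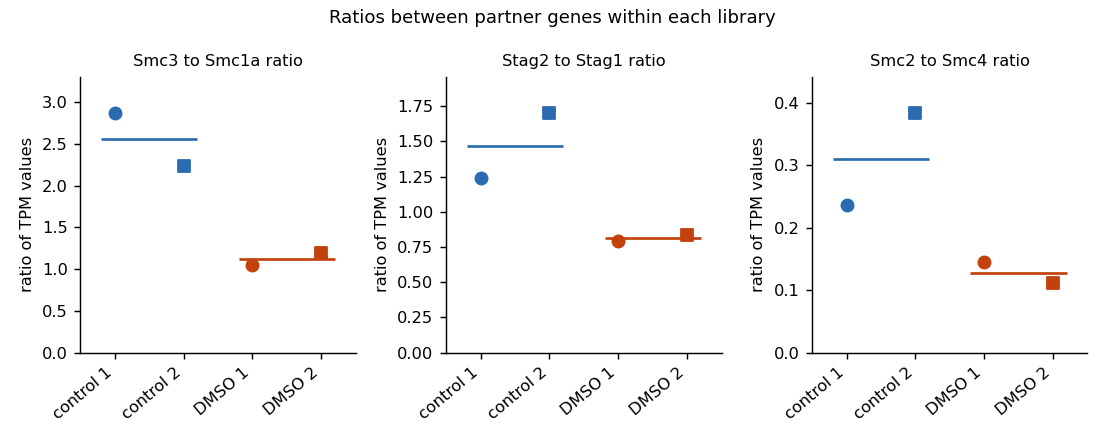
Ratios of TPM values within each library for Smc3 to Smc1a (left), Stag2 to Stag1 (middle) and Smc2 to Smc4 (right), with circles for library 1, squares for library 2 and lines for group means. All 3 ratios are lower in both DMSO libraries than in both control libraries, with means of 2.56 and 1.12, of 1.47 and 0.814, and of 0.310 and 0.128.

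Shares of subunit families gave the same kind of view. Of the summed TPM of Stag1, Stag2 and the meiotic Stag3, Stag2 held 44.3% and 56.3% in control embryos against 29.5% and 30.01% after DMSO. Stag3 held 20.0% and 10.6% in control embryos against 33.3% and 34.05% after DMSO. The Stag1 share differed less, at 35.8% and 33.1% against 37.2% and 35.9%. Smc1b, the meiotic counterpart of Smc1a, held 18.3% and 12.9% of the SMC1 TPM in control embryos against 11.9% and 11.8% after DMSO. Smc2 and Smc4 together held 45.8% and 49.8% of the summed TPM of Smc1a, Smc1b, Smc2, Smc3 and Smc4 in control embryos against 42.4% and 43.3% after DMSO. For each of these shares the groups did not overlap and the exact two-sided permutation p was 0.33. As with the ratios, such separation was common among single genes (38.7% of those tested lower, 31.1% higher). The Rec8 share of the kleisins, 0.0181% and 0.512% against 0.216% and 0.491%, overlapped between groups (exact permutation p = 1).

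Ordered by mean TPM, which is per length, the control embryos had Rad21 first, then Smc4, Smc3, Stag2, Stag1, Smc1a, Smc2, Nipbl, Ctcf and Rec8. The library values of Smc4 and Smc3 overlapped, as did those of Stag1 and Smc1a, of Smc1a and Smc2 and of Smc2 and Nipbl, so these neighbours did not differ beyond their spread. In DMSO-treated embryos the order was Rad21, Smc4, Smc3, Smc1a, Nipbl, Stag1, Stag2, Smc2, Ctcf and Rec8. There, the values of Smc1a and Nipbl overlapped, as did those of Nipbl and Stag1, and all other neighbours were apart. Stag2, Stag1 and Smc2 stood lower in this order, and Smc1a and Nipbl stood higher. Smc2 and Nipbl overlapped in control embryos, as did Stag1 and Smc1a, so their control ranks are not distinct.

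The 250 bases before the RefSeq transcription start (GRCm38.p6) are shown for Smc3 and Smc2, which fell, and for Smc1a, which overlapped between groups, so that partners with different changes can be compared. Of the 10 genes, 6 matched the RefSeq promoter table: Smc1a, Smc3, Stag1, Rec8, Ctcf and Smc2. Capitals mark CCAAT (bound by NF-Y), GGGCGG (bound by Sp factors), TTTGAA (the cell cycle homology element) and TTTNNCGC (an E2F-type element), each searched on both strands, so that some capitals show the reverse complement.
Smc3, chr19:53600146-53600395, plus strand: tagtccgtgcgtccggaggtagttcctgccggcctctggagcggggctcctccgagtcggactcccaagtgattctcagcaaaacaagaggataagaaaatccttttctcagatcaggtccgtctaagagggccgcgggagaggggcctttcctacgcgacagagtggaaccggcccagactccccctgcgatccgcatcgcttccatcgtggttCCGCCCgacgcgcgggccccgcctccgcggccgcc
Smc1a, chrX:152016178-152016427, plus strand: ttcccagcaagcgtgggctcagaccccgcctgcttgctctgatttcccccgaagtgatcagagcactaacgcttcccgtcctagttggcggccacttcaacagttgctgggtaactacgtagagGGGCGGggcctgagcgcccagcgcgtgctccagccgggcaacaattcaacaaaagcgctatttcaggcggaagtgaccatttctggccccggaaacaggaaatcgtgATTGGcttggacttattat
Smc2, chr4:52438971-52439220, plus strand: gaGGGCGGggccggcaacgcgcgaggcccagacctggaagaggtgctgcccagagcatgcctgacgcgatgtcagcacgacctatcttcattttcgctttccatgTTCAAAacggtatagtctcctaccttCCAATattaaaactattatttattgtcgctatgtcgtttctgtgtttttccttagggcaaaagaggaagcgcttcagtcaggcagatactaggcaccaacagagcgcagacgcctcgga
The window of Smc3 held 1 GGGCGG match and was 64.4% G and C. That of Smc1a held 1 CCAAT and 1 GGGCGG match at 56.8%, and that of Smc2 held 1 CCAAT, 1 GGGCGG and 1 TTTGAA match at 51.6%. Over the 6 matched genes, CCAAT occurred in 4 windows (33.8% of all 32851 windows of this length in the table), GGGCGG in 5 (32.7%), TTTGAA in 2 (16.0%) and TTTNNCGC in 1 (4.28%). AGNNGGC, a core of the CTCF motif not marked above, occurred in 3 (52.5%), namely Ctcf, Smc1a and Smc3. No one of these motifs separated Smc3 and Smc2 from Smc1a. The matches are descriptions of letters and not of binding.

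The wider set of genes for chromosome structure, 47 with the 10 above, had 42 that could be tested. Of these 6 fell and 0 rose, so the calls were near the 14.1% of all genes called lower. The median log2 fold change was -0.42, and 33 had a value below 0, where 53.2% of all genes did. Besides Smc2, Stag2 and Smc3, these were Pds5a, Top2a and Kif4. Pds5a encodes a cohesin-bound regulator that works with Wapl in release and with sororin in cohesion. It was at 24.0 and 22.8 TPM in control embryos against 9.22 and 11.5 TPM after DMSO, which gave -1.11 on the log2 scale (adjusted p = 0.0415 in limma). It was the only called gene of the 9 for cohesin loading, release and acetylation, which had a median of -0.29. Top2a, the DNA topoisomerase that untangles mitotic chromosomes, was at 276 and 183 TPM in control embryos against 105 TPM in each DMSO library (log2 fold change -1.09, limma adjusted p = 0.0433). Kif4, a chromosome-bound kinesin that works with condensin, was at 85.2 and 69.1 TPM in control embryos against 36.3 and 30.5 TPM after DMSO (log2 fold change -1.18, limma adjusted p = 0.0329). For Kif4, 15.7% of its 31-base words occur in other genes, mainly Pdzd11, and kallisto must split such reads. Fits that left out 1 library cannot decide whether these calls hold, since a group then has a lone library. Without the filter on low values 0 genes of the wider set were called by limma, as were 0 of all 22257 genes tested. The number was 3 without the variance trend or after rescaling without mitochondrial genes (Kif4, Smc2 and Stag2 both times), 1 with quantile normalization (Smc2) and 4 with median-ratio scaling. Of the 36 genes whose mean reached 5 TPM, 6 were called lower, where 22.5% of all such genes were.

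Of the 8 condensin genes, 7 were tested and 1 fell (Smc2), again near the 14.1% of all genes called lower, and the median log2 fold change was -0.28. Ncapd3, a subunit of condensin II, was listed at 0 in 3 libraries and at 1.43 TPM in DMSO library 2. Of the 4 meiotic cohesin genes 2 were tested and 0 were called. Smc1b was at 6.61 and 5.83 TPM in control embryos against 5.14 and 5.15 TPM after DMSO (log2 fold change -0.23, limma adjusted p = 0.595). Stag3 was at 19.4 and 12.8 TPM in control embryos against 21.3 and 25.3 TPM after DMSO (log2 fold change 0.53, limma adjusted p = 0.245). Its larger share of the STAG genes, given above, thus came with a lower Stag2 and with no call for Stag3 itself.

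Of the 4 genes for protection and cleavage of cohesin 0 were called, and the median was -0.45. With 14.1% of all genes called lower and 6.42% higher, no calls among so few genes here or in the meiotic cohesin, SMC5/6 and CTCF lists is not a result about them. Espl1, which encodes separase, the protease that opens the ring, was at 32.7 and 28.7 TPM in control embryos against 17.7 and 21.7 TPM after DMSO (log2 fold change -0.62, limma adjusted p = 0.148). Pttg1, which encodes securin, the inhibitor of separase, was at 193 and 276 TPM in control embryos against 389 and 322 TPM after DMSO (log2 fold change 0.62, limma adjusted p = 0.152). Protease and inhibitor lay on opposite sides of 0, and neither passed the test. Of the SMC5/6 complex, which serves DNA repair, 5 of 6 genes were tested, 0 were called and the median was -0.50. Its values ran from -0.75 for Smc5 (limma adjusted p = 0.154) to 0.27 for Smc6 (0.536).

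Among CTCF and the other architectural factors 5 of 6 were tested, 0 were called and the median was -0.43. Zfp143, a zinc finger factor found at promoter anchors of loops, was at 20.9 and 6.20 TPM in control embryos against 5.68 and 1.49 TPM after DMSO (log2 fold change -1.62, limma adjusted p = 0.119). Its control libraries differed by more than the gap between groups, control library 2 being near DMSO library 1. Ctcfl, the germ-line paralog of Ctcf, was at 2.04 and 2.65 TPM in control embryos against 4.02 and 3.11 TPM after DMSO (log2 fold change 0.45, limma adjusted p = 0.348). Maz had 1.39 and 0.0120 TPM in control embryos and was listed at 0 after DMSO in both libraries.

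**Figure D3:**
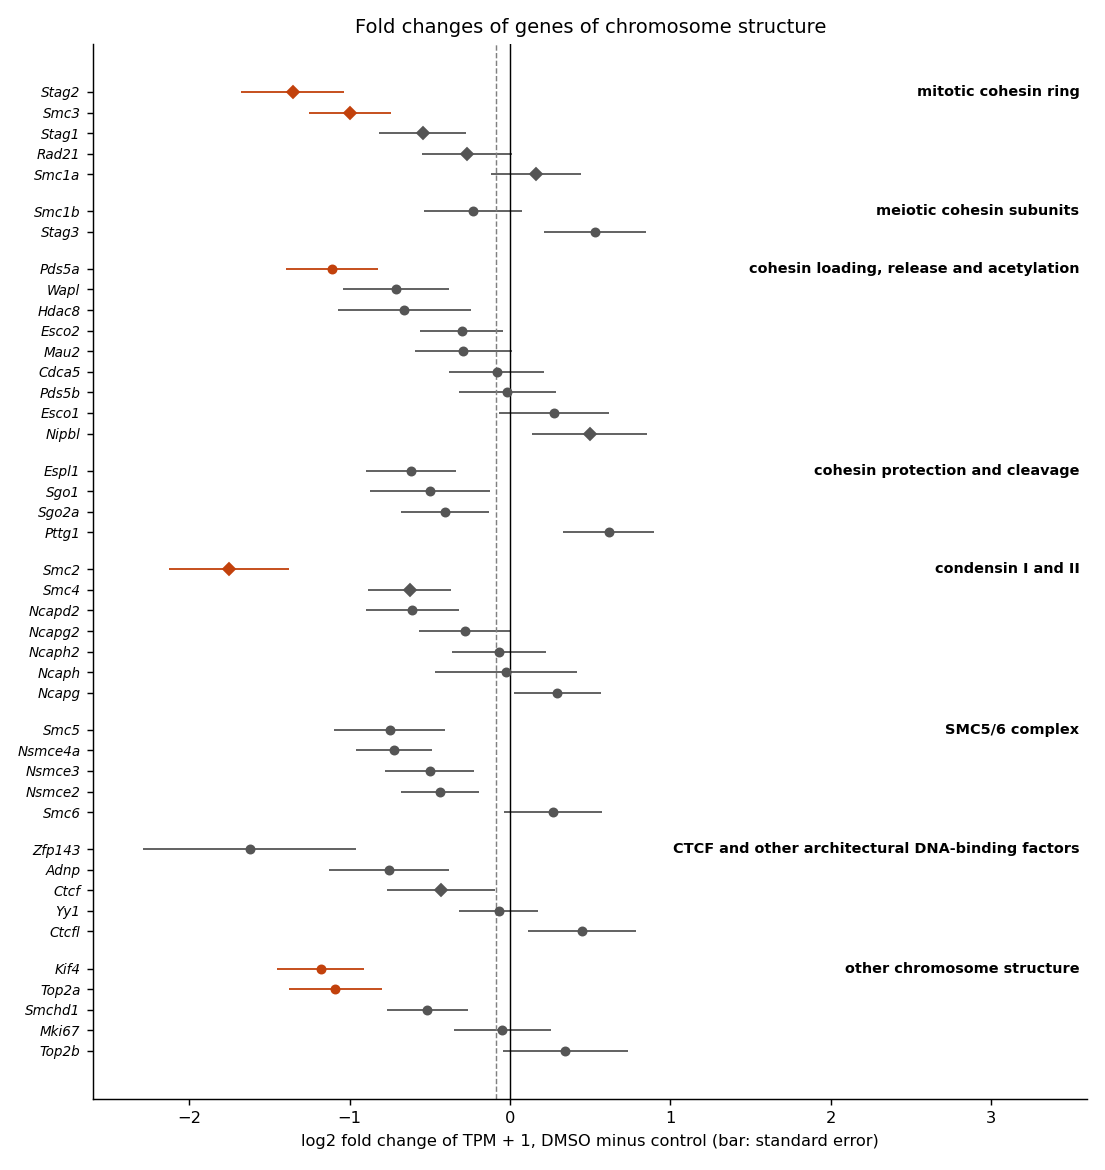
Log2 fold change of TPM + 1 (DMSO minus control, horizontal axis) with its standard error for the 42 tested genes of chromosome structure, by list. Diamonds are members of the set of 10, orange marks an adjusted p-value under 0.05, the solid line is 0 and the dashed line the median of all genes tested (-0.09). The 6 orange genes are all on the lower side.

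**Figure D4:**
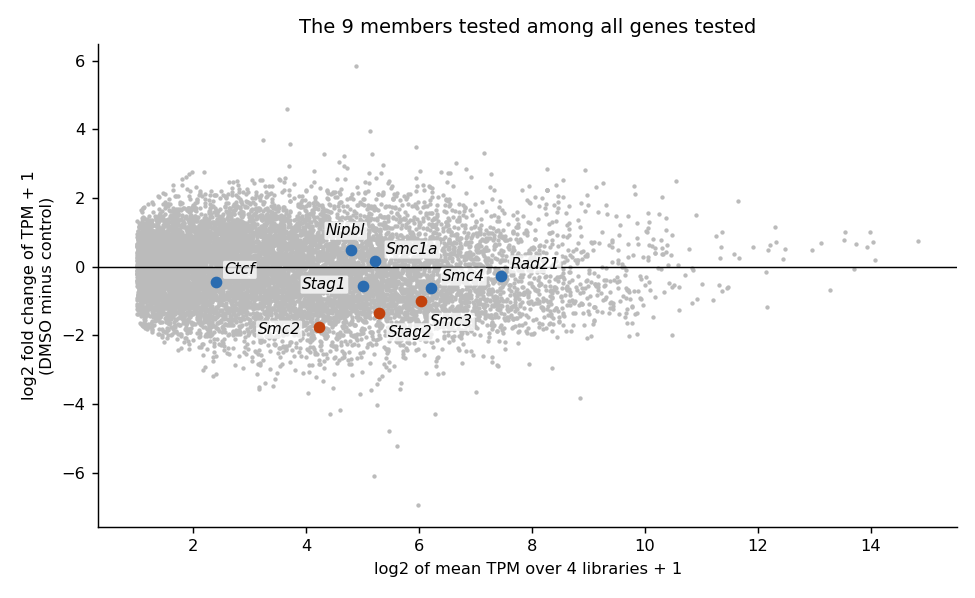
Log2 fold change of TPM + 1 (vertical axis) against the log2 of the mean TPM over 4 libraries plus 1 (horizontal axis) for the 12038 genes tested in grey. The 9 tested members are shown in orange where called and in blue where not, and all 9, Smc2 at -1.75 included, lie within the cloud of other genes.

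Genes whose values over the 4 libraries were nearest to those of Smc3, Smc2 and Ctcf were sought among those whose mean reached 10 TPM, by the Euclidean distance of centred log2(TPM + 1). Out of 5666 genes, Slc25a36, a mitochondrial nucleotide carrier (distance 0.0154), Smarca5, the ATPase of ISWI chromatin remodelers (0.0399), and Pemt (0.0447) were nearest to Smc3. Smarca5 was at 317 and 335 TPM in control embryos against 148 and 171 TPM after DMSO. Nearest to Smc2 were A430005L14Rik (0.0736), Tax1bp1 (0.166) and Naf1 (0.208), and among the nearest to Ctcf, out of 5667, were Bsdc1 (0.0355) and Zmynd19 (0.0490). With 4 libraries many genes share such a profile, and the distances are descriptions.

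Genes of the 2-cell stage were present in all 4 libraries, beside oocyte genes at a higher sum, and no library of another stage was compared. The 6 genes of the 2-cell stage, among them Zfp352 and members of the Zscan4 and Tcstv families, summed to 803 and 584 TPM in control embryos against 2268 and 1578 TPM after DMSO. Of these genes 3 rose (Tcstv1, Tcstv3 and Zfp352) and 0 fell, where 6.42% of all genes tested were called higher and 14.1% lower. The most abundant, Tcstv3, was at 297 and 209 TPM against 716 and 574 TPM, although 51% of its 31-base words occur in other genes. The share was 28.6% for Tcstv1, 21.5% for Zfp352, 91.7% for Zscan4f, 91.5% for Zscan4c and 65% for Zscan4d. The 10 oocyte genes summed to 1104 and 715 TPM in control embryos against 2848 and 2204 TPM after DMSO, of which Oosp1 held most, at 877 and 576 TPM against 2086 and 1763 TPM. Of the 9 oocyte genes tested 2 rose (Oosp1 and Bmp15) and 0 fell, against the same shares of all genes, while Zp3 (log2 fold change -0.42), Mos (-0.54) and Padi6 (-0.80) were below 0 and did not pass the test. Nlrp5 was listed at 0 in control library 1 and DMSO library 1. Both sums were higher after DMSO, and the part of these genes in the results for Smc2, Stag2 and Smc3 was not tested.

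Markers of other cells were few. Of 8 cumulus cell genes 5 were under 1 TPM in every library, and the sum of 38.8 and 30.6 TPM in control embryos against 10.7 and 18.7 TPM after DMSO was mostly Amhr2, at 36.8 and 29.6 against 8.29 and 16.5 TPM. Amhr2, the receptor of anti-Müllerian hormone, fell (limma adjusted p = 0.0442), but was not called with a pseudocount of 0.1, without the variance trend, or under median-ratio scaling, quantile normalization or rescaling without mitochondrial genes. The 5 sperm genes summed to 2.84 and 3.38 TPM in control embryos against 13.5 and 8.57 TPM after DMSO, mostly Prm2 at 2.56 and 2.86 against 11.04 and 6.79 TPM, and Tnp2 was listed at 0 throughout. Prm2 rose by 1.39 on the log2 scale (limma adjusted p = 0.0408). Tnp1, at 0.281 and 0 TPM against 2.08 and 1.69 TPM, passed the filter on low values through the DMSO libraries alone, so its call carries no weight. The 5 blastocyst genes summed to 14.0 and 7.79 TPM in control embryos against 14.6 and 11.1 TPM after DMSO, and 0 of the 3 tested were called. Krt8, at 6.20 and 4.47 against 2.68 and 3.53 TPM, was the highest in the control libraries, and Krt18, at 5.41 and 1.62 against 6.51 and 4.45 TPM, had the highest mean over all 4. Gata3 was at 1.58 and 1.16 TPM in control embryos against 4.84 and 2.50 TPM after DMSO (log2 fold change 0.94, limma adjusted p = 0.123). Of all 8 marker genes called, Tnp1 included, 0 were called without the filter on low values, where 0 of all 22257 genes tested were called. Whether the marker calls hold without 1 library cannot be decided, since a group then has a lone library. The part of these cells in the results was not tested.

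Sequence shared with other genes was measured as 31-base words of the annotated transcripts, which does not show how many reads were affected. None of the 31-base words of the transcripts of Smc1a, Smc2 or Nipbl occur in other genes of GENCODE M21, and 6.97% of those of Ctcf do, in the pseudogene Gm5914. The share was 2.80% for Smc3, 1.2% for Smc4, 0.703% for Stag2, 0.497% for Rec8, 0.275% for Stag1 and 0.262% for Rad21. In the wider set Adnp shared 81.2%, Sgo2a 35.0% and Ncaph2 30.4%, and their values are uncertain.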

How the data were processed

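RNA of 2-cell embryos was measured in 4 libraries, 2 per group, made with a low-input cDNA kit and sequenced in 50-base reads. The authors quantified transcripts with kallisto on Ensembl transcripts of GRCm38 (mm10), summed them per gene with tximport and deposited TPM values, one column per library. The submitters' notes also name STAR, SAMtools and bedtools. The authors used DESeq2 for differential expression, which was not run here because TPM values are not counts. TPM values keep no depth. Groups and replicate numbers came from the sample labels.

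Genes were named and placed with GENCODE M21 on GRCm38 (29668 of 30049 identifiers). The log2(TPM + 1) values of genes whose mean reached 1 TPM were fitted in R 4.3.3 by limma 3.58.1 (lmFit, then eBayes with a trend and no replicate block), and p-values were adjusted over all genes tested by Benjamini and Hochberg. The step was run on simulated data with larger changes than those of Smc2, Stag2 and Smc3, so that run does not bear on their calls. Shares and ratios were compared with exact permutation tests in scipy 1.17.1, under Python 3.11.15 with pandas 2.3.3, numpy 2.4.6 and matplotlib 3.10.9.

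The members and lists were chosen with earlier results of these data known. Named were the 10 members, the called genes of each wider list or else its lowest and highest, some genes listed at 0 in a group, and nearest profiles, of which 1 is not reported here. Adnp, Sgo2a, Ncaph2 and members of the Zscan4 family were named for their shared sequence. Zp3, Mos, Padi6, Krt8, Krt18 and Gata3 were named for their values. All of these were named after the values had been seen. Alternatives were another pseudocount, other filters, no trend, median-ratio scaling, quantile normalization, the block and leaving out each library. Rescaling without mitochondrial genes, the 5 ratios between partners, and the marker calls under each alternative, were added after seeing the data.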

Additional observations from a re-analysis of the deposited data

How the results depend on the processing

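The number of the 9 tested members called lower, 3 as reported, was 0 without the filter on low values and 1 with median-ratio scaling or quantile normalization, and it was 0 in each fit that left out 1 library. No setting called a member higher. In the wider set of 42 genes, where 6 were called lower, the number was 0 without the filter, 3 without the trend, 1 with quantile normalization, 3 when TPM was rescaled without mitochondrial genes, 10 with the replicate block and 0 in each fit without 1 library. The percent of all genes called lower, 14.1 as reported, was 0 without the filter, 22.5 with a mean of at least 5 TPM, 9.31 with quantile normalization, 24.8 with the block and between 0.017 and 11.4 in fits without 1 library. The cause was not tested. The groups share replicate numbers, but the labels do not say what a number stands for. Taken as differences from the mean of each group, libraries with the same number had r = 0.354 over 12038 genes, which are not independent. With the replicate number as a block, 3 calls among the members became 4, Smc4 being added (limma adjusted p = 0.0375). The median log2 fold change of the members was -0.55 as reported, -0.34 with quantile normalization and between -0.65 and -0.52 in fits without 1 library. That of Rad21 turned to 0.0141 with quantile normalization, and that of Smc1a, 0.16 as reported, ran from -0.0417 to 0.362 without 1 library, and that of Ctcf from -0.62 to -0.24. The difference in the Rec8 share of the kleisins, DMSO minus control, ran from -0.159 to 0.335 percentage points without 1 library. That of the Rad21 to Smc1a ratio ran from -3.354 without control library 2 to 0.0059 without control library 1. TPM keeps no depth, so the precision of low genes such as Rec8 and Ctcf is unknown.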
